A study of Homo sapiens with 6 samples.

Results

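The genes described here are 54 genes of the interferon response, RNA sensing and MHC class I antigen presentation, chosen by name and followed in PANC-1 cells after silencing of ZDHHC20. They were chosen with earlier results of these data known, so shares of calls among them describe the set and do not test it. They comprise 31 interferon-stimulated genes (ISGs), 11 genes of RNA sensing and its interferon regulatory factors (IRFs), 8 genes of MHC class I antigen presentation and 4 interferon receptor subunits. The deposited table held 53 of them among its 27394 genes, and 51 averaged 1 or more across the 6 libraries and were tested among 22189 genes. IFI44L had no row in the table. RSAD2, which encodes the antiviral protein viperin, had 0, 1 and 1 reads in shControl and 0, 1 and 1 in shZDHHC20, and the endosomal RNA receptor TLR3 had 0, 0 and 1 in each group. Neither level allowed a comparison. Values are normalized counts, which are gene counts divided by 1 factor per library, with no division by gene length.

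PANC-1 is an established human pancreatic cancer cell line, and ZDHHC20 is a palmitoyltransferase that attaches fatty acyl chains to cysteines of other proteins. Of the 6 RNA-seq libraries, 3 came from cells carrying a control shRNA (shControl) and 3 from cells carrying an shRNA against ZDHHC20 (shZDHHC20). The labels give both groups the same treatment, named only as transfection and infection, and no interferon, RNA or other ligand for either. Which ZDHHC20 shRNA was used is not given in the sources used here, nor are separate cultures for the replicates, so the p-values measure only the spread between these samples. No library came from cells without an shRNA.

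Interferons bind receptor pairs at the cell surface (IFNAR1 with IFNAR2 for type I, IFNGR1 with IFNGR2 for type II), which signal through Janus kinases to STAT proteins. A complex of STAT proteins with IRF9 binds the interferon-stimulated response element (ISRE) and switches on ISGs such as the IFIT, OAS, MX and IFITM genes. Type II signalling acts through the gamma-activated site and induces IRF1, which in turn drives genes of class I presentation. Within the cell, RIG-I (encoded by RIGI) and MDA5 (IFIH1) detect viral RNA and signal through MAVS. Class I molecules consist of an HLA heavy chain and beta-2 microglobulin (B2M), and they are loaded with peptides that the transporter TAP1/TAP2 brings into the endoplasmic reticulum, where tapasin (TAPBP) holds the empty molecule at the transporter. Tumour cells with little class I at the surface show few peptides to CD8+ T cells.

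ZDHHC20, the targeted gene, had 2001, 2033 and 1940.4 normalized counts in shControl and 872, 779 and 893 in shZDHHC20, that is 42.6% of the control mean. The groups did not overlap, and the log2 fold change was -1.23 ± 0.0649 (SE, n = 3 per group). The exact permutation test gave a two-sided p of 0.1, the smallest that 3 against 3 libraries allow. Recovered reads per library numbered 16575546 to 18441049. shZDHHC20 replicate 2 stood apart from its group. The SD, over genes that averaged 1000 or more, of its log2 differences was 0.178 from replicate 1 and 0.198 from replicate 3, against 0.0722 between those replicates and 0.0674 to 0.0718 within shControl. Its share of mitochondrial reads was 4.01%, against 5.28% to 5.52% in the other libraries. Calls that changed when this library was left out are therefore given beside the results they touch. The epithelial keratins KRT8 (56187 in shControl, 51529 in shZDHHC20) and KRT18 (19660.2 and 17570.4) were high in both groups, as were KRT19 (5917 and 6304) and VIM (21163 and 21669), whereas KRT7 stood at 86.5 and 85.3 and EPCAM, an epithelial adhesion protein, at 72.4 and 525. Of the leukocyte markers, CD3E, CD3D, MS4A1 and LYZ had no row, CD68 and NKG7 had means under 1, PTPRC did not exceed 6.36, and CD14 and ITGAM ranged from 13.8 to 41.3. Of 6 endothelial and stromal markers, COL1A1 stood at 3931 and 3260.1 and COL3A1 at 76.4 and 86.2, CDH5 and PDGFRB did not exceed 8.66, VWF had a mean under 1 and PECAM1 had no row. EPCAM had 65.7, 95.4 and 56.1 in shControl and 534, 477 and 563 in shZDHHC20, so its groups did not overlap. What this difference or the COL1A1 level means for the results was not tested.

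The DNA that many of these genes share was examined first. The core of the ISRE, GAAANNGAAA or TTTCNNTTTC on the other strand, was sought in the 300 bases around each annotated start (250 before it and 50 after) in the RefSeq annotation of GRCh38.p14. Windows were found for 42 of the 54 genes, and 27 of the 42 (64.3%) held the core, against 1195 of the 27305 genes with any window (4.38%). The share was 20 of 25 among ISGs, 4 of 6 among class I genes, 3 of 8 among sensing genes and 0 of 3 among receptors. The gamma-activated site TTCNNNGAA, which reads the same on both strands, was in 11 of the 42 genes (26.2%) against 9.38% of all genes. Most of the genes listed are known interferon targets, so a high share was built into the choice. A match marks letters in a window and not a bound site.

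The stretches that hold the core are shown for the genes that changed after ZDHHC20 silencing, so that the elements of the genes that fell can be read beside those of IFIT3, which rose. Each runs 5′ to 3′ along the gene, with the matches in capitals and 25 bases on either side, cut at the window's edge. The first 4 belong to class I presentation.
TAPBP (chr6:33314058-33314123, minus strand): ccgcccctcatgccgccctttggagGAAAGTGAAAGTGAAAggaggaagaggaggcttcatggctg
TAP1 (chr6:32853798-32853863, minus strand): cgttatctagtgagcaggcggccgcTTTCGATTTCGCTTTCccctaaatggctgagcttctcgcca
TAP2 (chr6:32838763-32838822, minus strand): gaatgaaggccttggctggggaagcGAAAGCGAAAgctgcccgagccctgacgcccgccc
B2M (chr15:44711348-44711413, plus strand): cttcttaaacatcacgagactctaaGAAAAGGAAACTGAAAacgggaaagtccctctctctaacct
The next stretches belong to ISGs that fell.
IFI6 (chr1:27672251-27672373, minus strand): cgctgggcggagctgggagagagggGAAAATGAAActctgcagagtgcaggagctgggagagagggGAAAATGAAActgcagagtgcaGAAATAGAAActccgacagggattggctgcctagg
IFITM3 (chr11:320861-320937, minus strand): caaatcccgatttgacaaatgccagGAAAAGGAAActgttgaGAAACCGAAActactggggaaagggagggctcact
OAS3 (chr12:112938306-112938496, plus strand): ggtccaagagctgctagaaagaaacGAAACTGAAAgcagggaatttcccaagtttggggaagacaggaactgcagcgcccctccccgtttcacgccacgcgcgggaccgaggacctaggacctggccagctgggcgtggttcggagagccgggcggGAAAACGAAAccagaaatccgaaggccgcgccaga
LGALS3BP (chr17:78979947-78980006, minus strand): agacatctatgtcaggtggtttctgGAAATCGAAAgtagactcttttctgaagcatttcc
DTX3L (chr3:122564307-122564366, plus strand): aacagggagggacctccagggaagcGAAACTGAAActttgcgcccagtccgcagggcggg
IFIT3, which rose, has a pair of annotated starts.
IFIT3, first start (chr10:89327816-89327909, plus strand): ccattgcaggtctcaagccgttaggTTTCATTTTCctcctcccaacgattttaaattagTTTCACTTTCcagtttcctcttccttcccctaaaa
IFIT3, second start (chr10:89332410-89332512, plus strand): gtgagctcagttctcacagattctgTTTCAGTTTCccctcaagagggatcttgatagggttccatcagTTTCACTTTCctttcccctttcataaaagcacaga

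In TAPBP, TAP1 and B2M pairs of matches overlapped, so that the repeated element ran on as 1 longer stretch, whereas IFI6 held 3 separate matches in a repeated context. The core was present in 9 of 13 genes with a window that fell, in 1 of 2 that rose and in 14 of 24 tested genes that were not called.

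**Figure D1:**
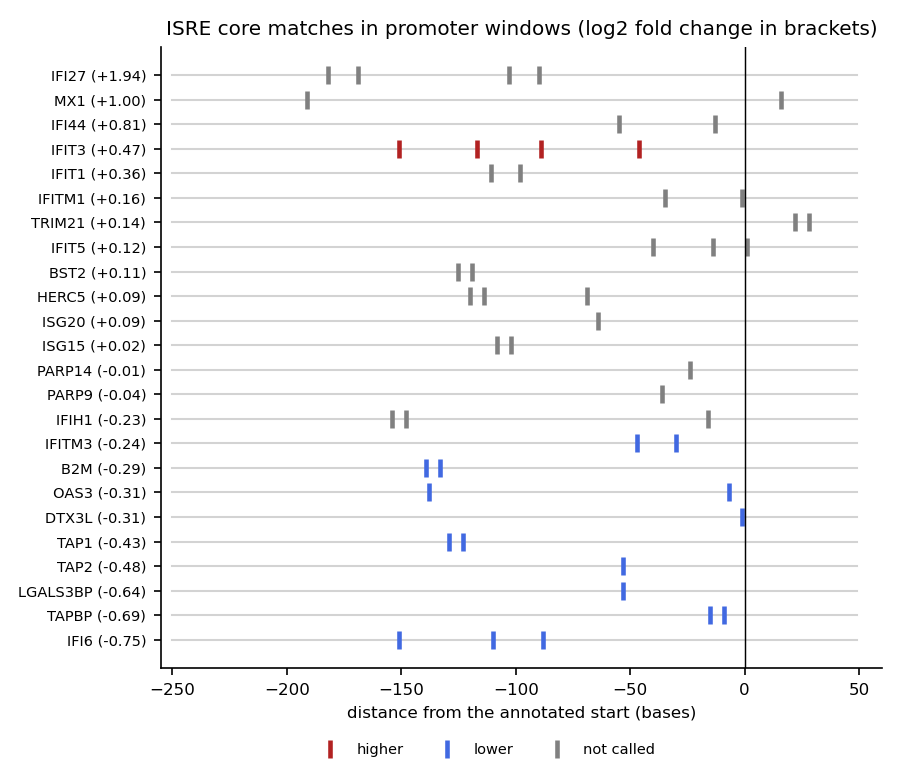
Position of each ISRE core match (ticks) relative to the annotated start (bases, 0 is the start) in the promoter windows (grey lines) of the 24 tested genes that hold one, ordered by log2 fold change, shZDHHC20 minus shControl; genes with more than 1 annotated start show the matches of all their windows. Genes that fell (blue, from IFI6 at -0.75 to IFITM3 at -0.24) and genes that were not called (grey) both carried matches close to the start and further upstream.

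Across all 51 tested genes, 16 passed an adjusted p of 0.05 (limma, two-sided, Benjamini-Hochberg over all genes), of which 3 rose and 13 fell. The background was 11.5% of all genes tested, 4.61% rising and 6.84% falling, and among these genes the share called was 31.4%. Calls depended on level, since 15 of the 16 were among the 35 genes that averaged 100 or more, where the background was 21.7% (8.41% rising and 13.3% falling). The 3 libraries of one group lay wholly above or below those of the other in 23 of the 51 genes, 6 higher and 17 lower in shZDHHC20, against a background of 28.6%. In those 35 genes this held for 19, against a background of 42.6%. The median log2 fold change of the 51 genes was 0.05, beside 0.01 over all genes tested. The median was -0.45 for class I presentation, -0.13 for the receptors, -0.06 for sensing and 0.12 for the ISGs.

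When each library was left out in turn, TAPBP, HLA-B, B2M, TAP2, TRIM25, IRF1, LGALS3BP, HELZ2 and IFITM3 kept an adjusted p under the threshold each time. The other 7 called genes did not. HLA-C and TAP1 lost the call without shControl replicate 1 or 3 or shZDHHC20 replicate 1, with adjusted p up to 0.13 and 0.0772 by limma. IFI6 and OAS3 lost it without any library but shZDHHC20 replicate 2 (up to 0.144 and 0.189), and DTX3L without any but shZDHHC20 replicate 3 (up to 0.196). OASL lost it without shControl replicate 1 or 2 or shZDHHC20 replicate 1 or 3 (up to 0.101), and IFIT3 without shControl replicate 2 or 3 or shZDHHC20 replicate 1 or 3 (up to 0.182). Without shZDHHC20 replicate 2, 17 of the genes passed, with DTX3L lost and IFIT1 and IFIT2 gained. The background moved with these settings too, and the count over all genes without that library was 4268, against 2541 with all 6, that is 19.2% of the genes tested against 11.5%. The calls also rested on the moderation of the variance. With 1 prior variance for all genes in place of limma's mean-variance trend, TAPBP, TRIM25, LGALS3BP and HLA-B remained lower, IFI27 was called higher and the background was 1.58%. Of the other genes that kept the call with each library left out, HELZ2 (0.0521), IRF1 (0.0684), TAP2 (0.0733), B2M (0.0872) and IFITM3 (0.127) then missed the threshold, with these adjusted p by limma.

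**Figure D2:**
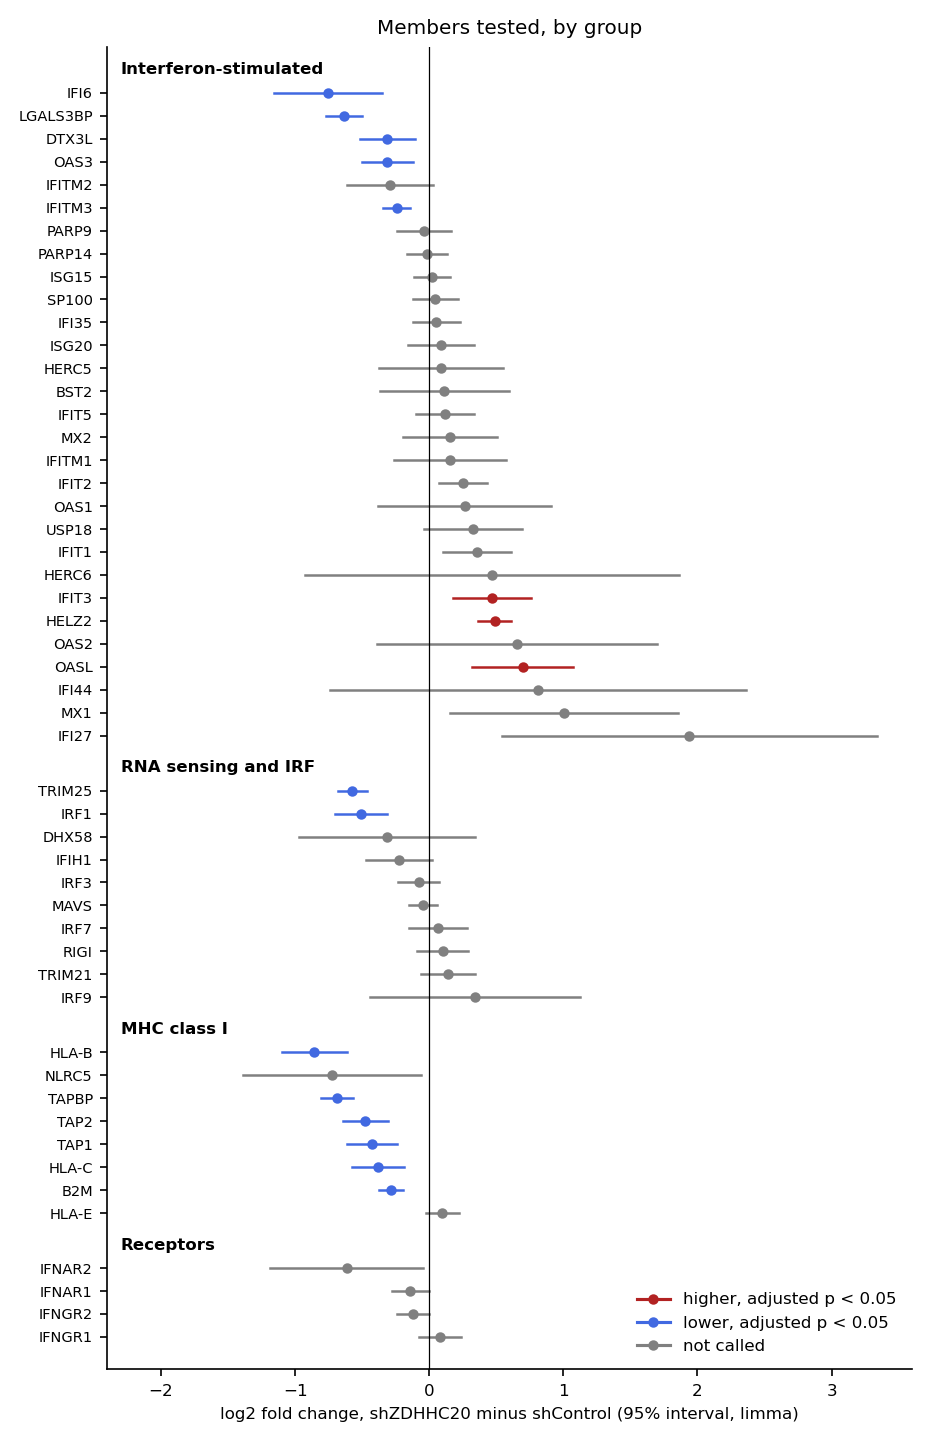
Log2 fold change, shZDHHC20 minus shControl, of the 51 tested genes with its 95% interval from limma (horizontal bars), by group and ordered by size; red marks genes that rose and blue genes that fell at an adjusted p under 0.05. Of the 8 class I genes 6 fell, while the ISGs spread from -0.75 (IFI6) to 1.94 (IFI27) with 3 called higher and 5 lower.

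Class I antigen presentation held the largest share of calls among the 4 groups, 6 of 8, or 75%, beside the 11.5% of all genes tested and the 21.7% of those that averaged 100 or more. The members were chosen with earlier results of these data known, so this share is a description and not a test. Of the class I genes, TAPBP, HLA-B, B2M, TAP2, TAP1 and HLA-C fell, and HLA-E and NLRC5 were not called. Those that fell were a pair of heavy chains, the light chain, both subunits of the transporter and tapasin. Without the mean-variance trend TAPBP and HLA-B kept the call, 2 of 8 or 25% against a background of 1.58%, and B2M (0.0872), TAP2 (0.0733), TAP1 (0.163) and HLA-C (0.217) lost it (adjusted p by limma). Library by library, the median over the 8 genes was -0.45, -0.50 and -0.44 in shZDHHC20 against -0.04 to 0.01 in shControl, on the scale of log2 difference from the shControl mean.

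TAPBP, tapasin, which links empty class I molecules to the peptide transporter (chr6:33299694-33314387, minus strand, GRCh38), had 4575, 4603 and 4649 normalized counts in the shControl libraries and 2956, 2626 and 3007 in the shZDHHC20 libraries. Every silenced library lay below every control, with means of 4609 ± 37 and 2863 ± 207 (SD, n = 3). The log2 fold change was -0.69 ± 0.0562 (SE), with an adjusted p of 8.32e-06 by limma, and under every alternative the adjusted p stayed at or below 0.0398. HLA-B, a classical class I heavy chain (chr6:31269491-31357188, minus strand), had 308, 267 and 286 in shControl and 171, 142 and 164 in shZDHHC20. It kept 55.2% of its control mean, the lowest share of any called gene in the set, with a log2 fold change of -0.86 ± 0.112 and an adjusted p of 0.000285 by limma (at most 0.0443 over the alternatives). HLA-C, the neighbouring heavy chain (chr6:31268749-31272130, minus strand), had 1675, 1277 and 1574 in shControl and 1177, 1063 and 1212 in shZDHHC20. shControl replicate 2 was the lowest control and lay only just above the highest silenced library. Its log2 fold change was -0.38 ± 0.0906 (adjusted p = 0.0148 by limma). HLA-B and HLA-C share annotated exon sequence and are near-identical in part, and how the counting treated reads that fit both is not given in the sources used here, so the split between them is uncertain.

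The light chain B2M (chr15:44711487-44718877, plus strand) had 12819.8, 12979 and 12924 in shControl and 10461, 10415 and 10908 in shZDHHC20. The controls differed by little, with a mean of 12908 ± 80.9 (SD, n = 3), and a fall to 82.1% of that mean stood well clear of it (log2 fold change -0.29 ± 0.0408, adjusted p = 0.000564 by limma). TAP1, a subunit of the peptide transporter (chr6:32845209-32853978, minus strand), had 1248, 1255 and 1336 in shControl and 874, 1116 and 881 in shZDHHC20. Replicate 2 was the highest of the silenced libraries but still below all controls, and the log2 fold change was -0.43 ± 0.0869 (adjusted p = 0.00623 by limma). TAP2, its partner subunit (chr6:32821833-32838780, minus strand), had 659, 628 and 673 in shControl and 442, 457 and 512 in shZDHHC20, a log2 fold change of -0.48 ± 0.0791 (adjusted p = 0.00165 by limma). TAP1 and TAP2 thus kept 74.8% and 72% of their control means, and their intervals, -0.62 to -0.24 and -0.65 to -0.30, overlapped.

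HLA-E, a non-classical heavy chain that is a ligand of NKG2A on natural killer cells, was not called. It had 3822, 3530.3 and 3736 in shControl and 3779, 4273 and 3815 in shZDHHC20, the groups overlapped, and the log2 fold change of 0.10 had an interval of -0.03 to 0.22. The intervals of HLA-B and HLA-C, -1.10 to -0.62 and -0.58 to -0.19, lay wholly below it, and the difference between heavy chains was not itself tested. NLRC5, the transactivator of class I genes, was low, at 41.4, 51.2 and 35 in shControl and 36, 16.9 and 26.9 in shZDHHC20. Its groups overlapped, and a log2 fold change of -0.72 with an interval of -1.39 to -0.06 did not pass the test (adjusted p = 0.166 by limma).

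**Figure D3:**
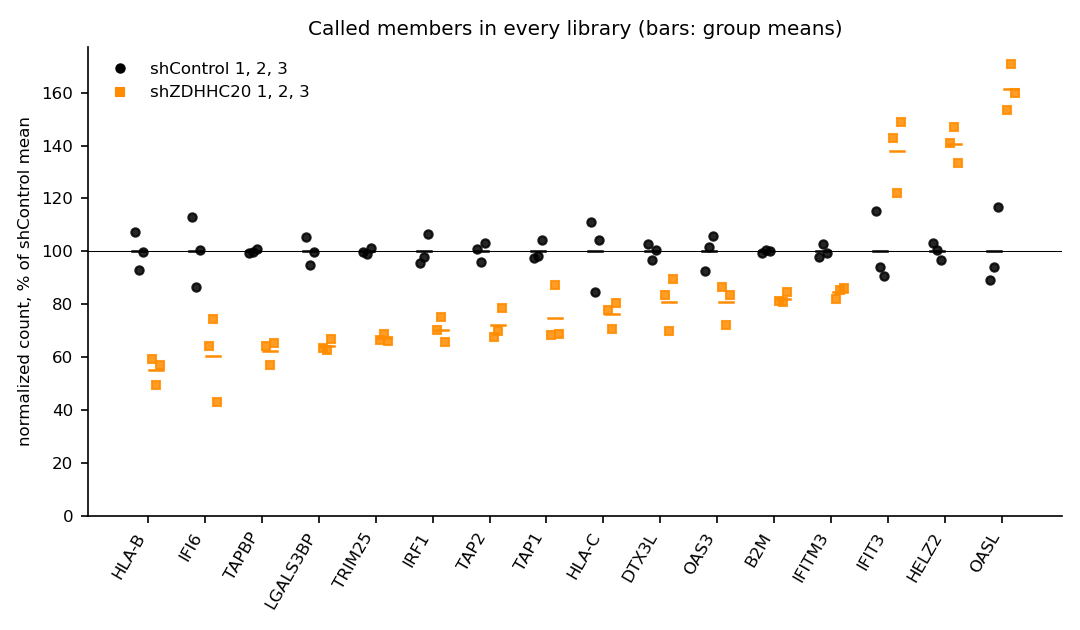
Normalized count of each of the 16 called genes in every library, as a percentage of that gene's shControl mean (vertical axis from 0; circles shControl, squares shZDHHC20, short bars the group means). In each of the 16 genes the 3 shZDHHC20 libraries lie on one side of the 3 shControl libraries, from HLA-B at 55.2% of control to OASL at 161%.

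The antigen presentation pathway was followed beyond these 8 genes in a further list of 24, of which 21 were tested. In it 4 fell and 0 rose, or 19%, against 11.5% of all genes tested, and all 4 were among the 12 that averaged 100 or more, where the background was 21.7%. The median log2 fold change was -0.35 (-0.28 by edgeR). None of the 4 kept the call without the mean-variance trend. RFX5, a DNA-binding subunit of the complex that occupies MHC promoters, had 1473, 1419 and 1561 in shControl and 1050.4, 1115 and 1126 in shZDHHC20 (log2 fold change -0.44 ± 0.0614, adjusted p = 0.000496). ERAP1, which trims peptides in the endoplasmic reticulum, had 977, 1016 and 982 (shControl) and 818, 749 and 771 (shZDHHC20) (log2 fold change -0.35 ± 0.0643, adjusted p = 0.00332 by limma). ERAP1 shares exon positions with CAST on the opposite strand, whose mean of 5265 was far higher. The immunoproteasome subunit PSMB9, singled out after its values were seen because it passed, had 294, 220.0 and 244 in shControl and 132, 219.8 and 139.5 in shZDHHC20, where replicate 2 almost reached the lowest control (log2 fold change -0.65 ± 0.176, adjusted p = 0.029 by limma). It missed the threshold in 6 of 17 alternatives. PSMB9 shares exon positions with PSMB8 on the opposite strand, whose mean was 349. Whether the counting used strand is not given in the sources used here, so the falls of ERAP1 and PSMB9 carry this uncertainty. Chaperones of general protein folding that also serve class I loading did not pass. CALR had a log2 fold change of 0.04, CANX of 0.07 and PDIA3 of 0.04; they were picked out after their values were seen. Leaving out shZDHHC20 replicate 2 changed this for CANX (adjusted p = 0.000552, log2 fold change 0.15) and PDIA3 (0.0132, 0.11), both then higher. It also brought in PSMB8 (0.0117, -0.46) and PSMB10 (0.00668, -1.46), subunits of the immunoproteasome, the proteasome activator subunit PSME2 (0.00558, -0.31) and RFXANK (0.00712, -0.31), a partner of RFX5, all lower, so that 2 rose and 8 fell, or 47.6% against a background of 19.2%.

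**Figure D4:**
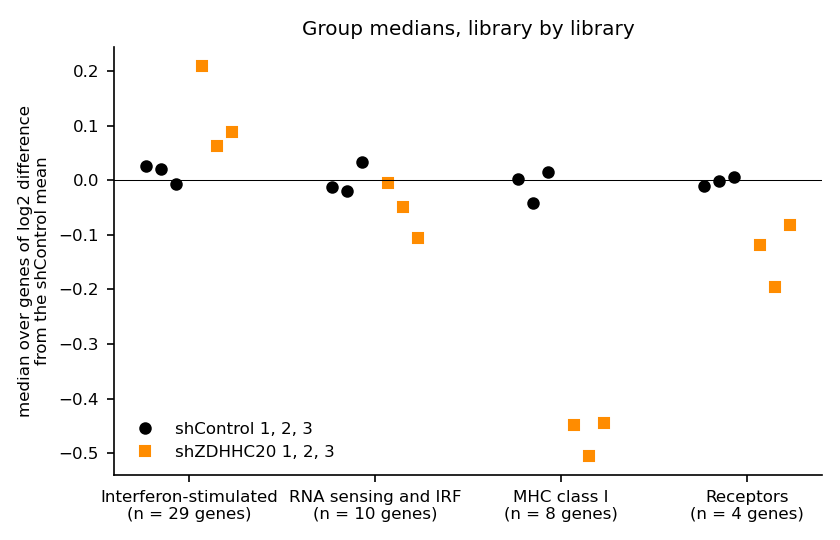
Median over the genes of each group of the log2 difference from the shControl mean, for every library (circles shControl, squares shZDHHC20). The class I median lies between -0.50 and -0.44 in the 3 silenced libraries and between -0.04 and 0.01 in the controls, while the ISG median lies between 0.06 and 0.21 in the silenced libraries.

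The ISGs moved in both directions. Of 29 tested, HELZ2, OASL and IFIT3 rose, LGALS3BP, IFITM3, IFI6, OAS3 and DTX3L fell, and 21 were not called. The share called was 27.6%, beside 11.5% of all genes tested (4.61% rising and 6.84% falling). Among the 17 that averaged 100 or more 7 passed, where the background was 21.7%. Without the mean-variance trend 1 rose and 1 fell, or 6.9% against a background of 1.58%. The log2 fold change was positive in 21 of the 29, and in 11467 of all 22189 genes tested. The genes that fell do unlike things: IFI6 is a small protein of mitochondria and endoplasmic reticulum, LGALS3BP a secreted glycoprotein, OAS3 an enzyme that makes oligoadenylates on double-stranded RNA, IFITM3 a membrane protein that blocks viral fusion, and DTX3L a ubiquitin ligase.

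Among the IFIT genes and other effectors, IFIT1, IFIT2, IFIT3 and IFIT5 encode RNA-binding proteins that restrain translation of viral RNA and lie side by side on chromosome 10. IFIT3 (chr10:89327894-89340971, plus strand) had 162, 132 and 127 in shControl and 200.3, 171 and 209 in shZDHHC20. shControl replicate 1 came close to shZDHHC20 replicate 2, and the log2 fold change was 0.47 ± 0.134 (adjusted p = 0.0384 by limma). IFIT1 had 294, 288 and 359 in shControl and 456, 346 and 405 in shZDHHC20, and the lowest silenced library lay below the highest control. Its log2 fold change of 0.36 missed the threshold by limma (adjusted p = 0.0708) and passed it by edgeR (0.0481), by DESeq2 (0.0448) and without shZDHHC20 replicate 2 (0.00994). IFIT2 had 349.6, 391 and 389 (shControl) and 439, 438 and 468 (shZDHHC20), with no overlap, at a log2 fold change of 0.25 (adjusted p = 0.0724, or 0.0368 without shZDHHC20 replicate 2). IFIT2 shares exon positions with LIPA on the opposite strand, whose mean was 2286, and whether the counting used strand is not given in the sources used here. IFIT5, at 346, 348 and 348 (shControl) and 419.7, 326 and 392 (shZDHHC20), overlapped, with a log2 fold change of 0.12. All of the IFIT genes had positive log2 fold changes, and of them IFIT3 passed.

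HELZ2, a helicase and transcriptional coactivator induced by interferon (chr20:63558086-63574239, minus strand), had 1664, 1622 and 1559 in shControl and 2276, 2377 and 2154 in shZDHHC20. It had the smallest adjusted p of the genes that rose, with means of 1615 ± 53 and 2269 ± 112 (SD, n = 3), a log2 fold change of 0.49 ± 0.0569 and an adjusted p of 0.000112 by limma. LGALS3BP, which binds galectins (chr17:78971238-78980109, minus strand), had 1731, 1559.8 and 1640.0 in shControl and 1041, 1032 and 1099 in shZDHHC20. The silenced libraries lay close together and well below the lowest control, giving a log2 fold change of -0.64 ± 0.0613 and an adjusted p of 2.69e-05 by limma (at most 0.0398 over the alternatives). IFI6 (chr1:27666061-27672218, minus strand) had 198, 152 and 176 in shControl and 112, 131 and 75.1 in shZDHHC20. The silenced libraries ranged widely among themselves, all below the lowest control, and the log2 fold change of -0.75 ± 0.188 had an adjusted p of 0.0195 by limma.

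The remaining effectors were not called. IFI27, a mitochondrial protein used as a marker of interferon exposure, was close to the floor, with 2, 3 and 2 recovered reads in shControl and 9, 8 and 11 in shZDHHC20. The ratio of summed reads, per normalized library, was 3.92 with an exact 95% interval of 1.67 to 10.6 that covers counting error only, and limma gave a log2 fold change of 1.94 (adjusted p = 0.0756). IFI44, an ISG of unsettled function, had 3, 4 and 2 reads against 6, 4 and 6, with overlap. ISG20, an exonuclease, had means of 249 and 265 (log2 fold change 0.09), and BST2, tetherin, which holds budding virus at the membrane, 55.3 and 60.4 (0.11). IFI35 stood at 432 and 448 (0.05) and SP100, a protein of nuclear bodies, at 502 and 518 (0.05). The groups overlapped in these 4 genes.

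The OAS and MX families act on viral RNA and viral capsids. OASL (chr12:121019111-121039242, minus strand), an OAS-like protein that lacks oligoadenylate synthesis and aids RIG-I, had 50.5, 53.2 and 66.1 in shControl and 86.9, 96.7 and 90.5 in shZDHHC20. The groups did not overlap, the silenced mean was 161% of control, and the log2 fold change was 0.70 ± 0.174 (adjusted p = 0.02 by limma). It was the only called gene of the set with a mean under 100. OAS3 (chr12:112938352-112973249, plus strand) moved the other way, with 597, 656 and 682 in shControl and 559, 465 and 538 in shZDHHC20 and a log2 fold change of -0.31 ± 0.087 (adjusted p = 0.0345 by limma). OAS1 had 32.3, 28.1 and 36 (shControl) and 60.4, 33.8 and 27.9 (shZDHHC20), where the high mean of shZDHHC20 came from replicate 1, and OAS2 had 10.1, 11 and 5.01 (shControl) and 9.54, 15 and 15.4 (shZDHHC20); both overlapped. MX1, a dynamin-like GTPase, had 22.2, 14.1 and 8.01 in shControl and 28.6, 31 and 23.1 in shZDHHC20. The groups did not overlap, but the controls alone ranged widely, and with an interval of 0.16 to 1.85 for the log2 fold change the adjusted p of 0.131 by limma missed the threshold. MX2, which restrains nuclear entry of lentiviruses, had means of 88.8 and 98.4 and a log2 fold change of 0.15.

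The IFITM proteins sit in plasma and endosomal membranes and are themselves S-palmitoylated, which RNA libraries do not measure. IFITM3 (chr11:319669-327537, minus strand) had 5867, 6155 and 5969 in shControl and 4907, 5120.2 and 5171 in shZDHHC20. All silenced libraries were below all controls, and the log2 fold change was -0.24 ± 0.0454, the smallest of the called changes (adjusted p = 0.00357 by limma). IFITM2 had 408, 652 and 577 (shControl) and 516, 417 and 391 (shZDHHC20), a log2 fold change of -0.29 with a wide interval of -0.61 to 0.03, and IFITM1 had 66.7, 48.2 and 58.1 (shControl) and 61.5, 70.4 and 59.7 (shZDHHC20) (0.16, -0.26 to 0.57). Neither passed. These paralogs are close in sequence and IFITM1 and IFITM2 share annotated exons, so reads may be split between them in an uncertain way.

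Of the 7 genes of ISG15 conjugation and the PARP9 complex, 1 fell and 6 were not called. That is 14.3%, near the 11.5% of all genes tested. The call was 1 of the 4 that averaged 100 or more, where the background was 21.7%. ISG15, a ubiquitin-like modifier, had 1127, 1073 and 1053 in shControl and 1045, 1110.1 and 1149 in shZDHHC20, the groups overlapped, and its log2 fold change of 0.02 had an interval of -0.11 to 0.16. USP18, which removes ISG15 and dampens type I receptor signalling, had 72.8, 80.3 and 72.1 (shControl) and 107, 77.9 and 99.1 (shZDHHC20) (0.32, adjusted p = 0.27). HERC5, the main ligase of ISG15, had means of 48.3 and 52.1 (0.09), and its relative HERC6 had 14 recovered reads in all in shControl and 20 in shZDHHC20. DTX3L (chr3:122564238-122575203, plus strand) was the called member, at 553, 519 and 539.7 in shControl and 448, 375 and 481 in shZDHHC20, with a log2 fold change of -0.31 ± 0.0943. With an adjusted p of 0.0489 it passed by little, and it missed without shZDHHC20 replicate 2 (0.0536), the library with the lowest value. PARP9, its partner in a complex and its neighbour on the opposite strand, had 275, 250.1 and 258 (shControl) and 248, 257 and 258 (shZDHHC20), a log2 fold change of -0.04 with an interval of -0.24 to 0.17. DTX3L and PARP9 share exon positions, and whether the counting used strand is not given in the sources used here. PARP14, a related ADP-ribosyltransferase, had means of 948 and 939 (-0.01).

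In RNA sensing and its regulatory factors, 2 of 10 tested genes fell, 0 rose and 8 were not called. The share called was 20%, beside 11.5% of all genes tested. Both calls were among the 8 genes that averaged 100 or more, where the background was 21.7%, so the count was near the background. TRIM25, a ubiquitin ligase known as a cofactor of RIG-I (chr17:56836387-56914080, minus strand), had 2788, 2761 and 2822 in shControl and 1858, 1921 and 1848 in shZDHHC20. The 3 silenced libraries lay close together and far below the lowest control. The means were 2790.4 ± 30.8 and 1876 ± 39.9 (SD, n = 3), the log2 fold change was -0.57 ± 0.0495, and the adjusted p was 1.30e-05 by limma (at most 0.036 over the alternatives). TRIM25 shares exon positions with DGKE on the opposite strand, whose mean was 464, and with C17orf67 on its own strand, whose mean was 62.5. TRIM21, an intracellular antibody receptor and ubiquitin ligase, had 344, 414 and 380.5 (shControl) and 429, 385 and 439 (shZDHHC20) (0.14, interval -0.06 to 0.34).

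The sensors themselves were not called. RIGI had 679, 679.9 and 635 in shControl and 729, 622 and 798 in shZDHHC20 (0.10, interval -0.09 to 0.29), with replicate 2 as the lowest silenced library. IFIH1 had 279, 268 and 290.4 (shControl) and 252, 202 and 266 (shZDHHC20), below control in every silenced library by a small margin, at a log2 fold change of -0.23 (adjusted p = 0.249). DHX58, which encodes LGP2, a regulator of both sensors, had 46.5, 34.1 and 38 (shControl) and 49.8, 22.5 and 27.9 (shZDHHC20) (-0.31). MAVS, the mitochondrial adaptor, had 3601, 3603 and 3791 (shControl) and 3538, 3655 and 3443 (shZDHHC20), and its interval of -0.15 to 0.06 was among the narrowest in the set.

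Of the regulatory factors, IRF1 (chr5:132481609-132490798, minus strand), an activator of class I genes and ISGs, had 406, 416 and 452 in shControl and 298, 319 and 278 in shZDHHC20. It kept 70.3% of control with no overlap (log2 fold change -0.51 ± 0.0898, adjusted p = 0.00247 by limma). IRF3, which carries the first wave of interferon induction, had 1215, 1166 and 1133 (shControl) and 1049, 1226 and 1062 (shZDHHC20) (-0.08, interval -0.23 to 0.07), and IRF7, which amplifies it, 419, 419.8 and 459.6 (shControl) and 445, 525 and 397 (shZDHHC20) (0.07, -0.15 to 0.28). IRF9, the DNA-binding partner of STAT proteins at the ISRE, had 13.1, 27.1 and 39 (shControl) and 29.7, 30.1 and 31.8 (shZDHHC20); the controls alone spread from 13.1 to 39.0, and no difference was detectable (0.34, interval -0.44 to 1.12). In these 3 genes the groups overlapped. IRF3 shares exon positions with BCL2L12 on the opposite strand, whose mean was 647. Whether the counting used strand is not given in the sources used here.

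The interferon receptors had 0 calls among 4, where 11.5% of all genes tested were called, so the count was near the background. IFNAR1 had 1269, 1294 and 1303 in shControl and 1236, 1077 and 1195 in shZDHHC20, IFNAR2 had 32.3, 51.2 and 40 (shControl) and 24.4, 30.1 and 25 (shZDHHC20), and IFNGR2 had 1961, 1926 and 1933 (shControl) and 1717, 1768 and 1867 (shZDHHC20). In these 3 genes every silenced library was below every control, by log2 fold changes of -0.14, -0.62 and -0.12, with adjusted p of 0.2, 0.171 and 0.189 by limma. Groups without overlap, in either direction, were common: 28.6% of all genes tested and 42.6% of those that averaged 100 or more. IFNGR1, the ligand-binding chain for interferon gamma, had 736, 710.1 and 762 (shControl) and 762, 734 and 842 (shZDHHC20) and overlapped (0.08, interval -0.07 to 0.24). IFNGR2 shares exon positions with TMEM50B on the opposite strand, whose mean was 673. Whether the counting used strand is not given in the sources used here.

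Levels differed widely between genes when set per kb of merged exon length. IFITM3 was highest, with 4449 normalized counts per kb in shControl and 3758 in shZDHHC20, followed in shControl by B2M (2123), HLA-E (1242), ISG15 (1152) and TAPBP (912). At the other end IFI27 had 0.566 per kb in shControl, HERC6 0.81, OAS2 1.39, IFI44 1.48 and MX1 1.71. Among the heavy chains of the set the order per kb was HLA-E, HLA-C (602) and HLA-B (94.1) in shControl. Of the ISGs, IFI44 and RSAD2 were near the floor of 3 reads in both groups, and OAS2 and MX1 were low, with means of 8.72 and 14.8 normalized counts in shControl and 13.3 and 27.6 in shZDHHC20. Others were not low, and 17 of the 29 tested ISGs averaged 100 or more. Among these were ISG15 (1084 in shControl and 1101 in shZDHHC20), OAS3 (645 and 520), IFIT2 (377 and 448) and IFIT1 (314 and 402).

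**Figure D5:**
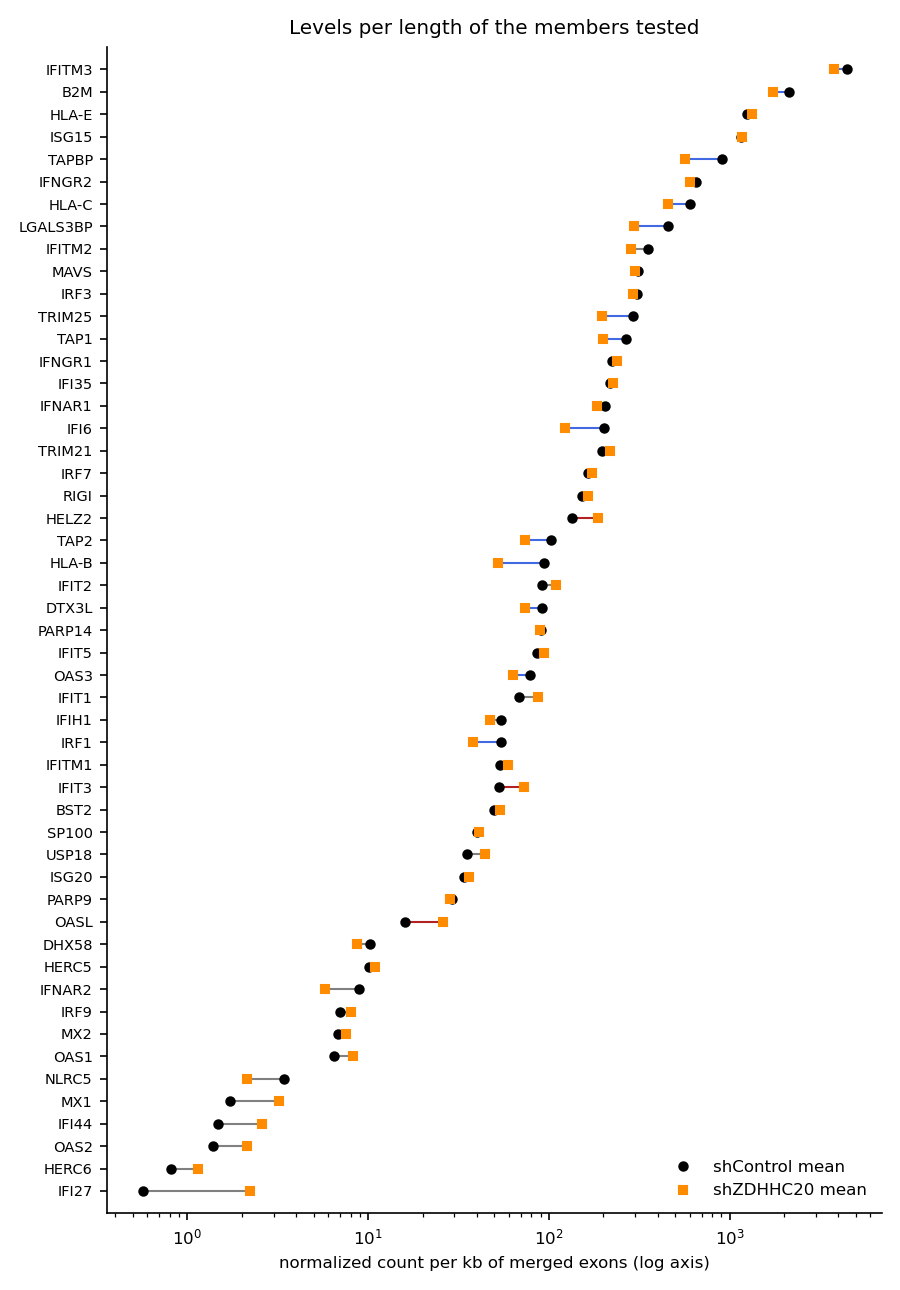
Mean normalized count per kb of merged exons (log axis) of the 51 tested genes in shControl (circles) and shZDHHC20 (squares), ordered by the control level; blue lines join the means of genes that fell, red of genes that rose and grey of genes not called. Levels run from under 1 per kb (IFI27, HERC6) to 4449 per kb (IFITM3) in shControl. The genes that fell run from 54.4 per kb (IRF1), in the middle of the order, to the top.

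Further lists of the pathway were read from the same fit. Of 10 interferons and lambda receptor chains, IFNA1, IFNB1, IFNG and IFNK had no row and IFNL1 was at 0 in all shControl libraries and at 1.06, 3.76 and 0.962 in shZDHHC20, a mean under 1. The 5 tested had 0 calls, near the background of 11.5% of all genes tested. IFNL3 (adjusted p = 0.781), IFNE (0.783) and IFNLR1 (0.895) had the smallest p of the list, all by limma and all on means under 20 normalized counts. IFNE had a log2 fold change of 0.40 and IFNLR1 of -0.14. IFNL3 had 3.03, 1 and 0 in shControl and 1.06, 1.88 and 0.962 in shZDHHC20, so the group means were nearly equal (96.7% of control). Its fitted log2 fold change of 0.94 came from the control library at 0 and the pseudocount of 0.1, and was 0.18 with a pseudocount of 1 and -0.03 by edgeR.

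In JAK-STAT signalling, 3 of 11 tested genes rose and 0 fell by limma, or 27.3% against 11.5% of all genes tested, and 3 of the 10 that averaged 100 or more passed, against 21.7%. The median log2 fold change of the list was -0.16. STAT3, the acute-phase and growth factor STAT, had 6598, 6570.5 and 6448 in shControl and 7554, 7534 and 7981 in shZDHHC20 (0.23 ± 0.0439, adjusted p = 0.00377 by limma). STAT2 had 838, 809.5 and 742 (shControl) and 983, 979.5 and 914 (shZDHHC20) (0.27 ± 0.0693, 0.0234), and the kinase JAK1 5740.5, 5905 and 5784 (shControl) and 6814, 6205 and 7349 (shZDHHC20) (0.22 ± 0.0573, 0.0237). STAT3 missed the threshold in 2, STAT2 in 5 and JAK1 in 6 of 17 alternatives, among them the fit without the mean-variance trend, where the list had 0 calls. The absence of falls also depended on the setting. The kinase TYK2, described with SOCS3 after their values were seen, had 1246, 1212 and 1264 in shControl and 1107, 1120.4 and 974 in shZDHHC20, a log2 fold change of -0.22 that just missed by limma (adjusted p = 0.0508) and passed by edgeR (0.0478), by DESeq2 (0.0359) and without shZDHHC20 replicate 2 (0.00924). SOCS3, a feedback inhibitor of the pathway, had 1298, 1268 and 1369 (shControl) and 1109, 1291 and 1016 (shZDHHC20), with an adjusted p of 0.121 by limma, or 0.00231 without that library (log2 fold change -0.30).

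In nucleic acid sensing and induction, 1 of 12 tested genes fell and 0 rose, or 8.33%, which was below the background of 11.5%. STING1, the adaptor for cytosolic DNA, had 303, 254 and 244 in shControl and 171, 172 and 149 in shZDHHC20, that is 61.3% of control (log2 fold change -0.70 ± 0.118, adjusted p = 0.00176 by limma). It missed only without the mean-variance trend among the 17 alternatives (0.0703). TRAF3, a ubiquitin ligase downstream of MAVS, had a log2 fold change of 0.20 (adjusted p = 0.0628 by limma, or 0.047 by edgeR). For TRIM56, also a ubiquitin ligase, it was 0.18 (adjusted p = 0.132 by limma). EIF2AK2, the kinase PKR, was called higher without shZDHHC20 replicate 2 (log2 fold change 0.11, adjusted p = 0.0455), against 0.01 and 0.95 with all libraries.

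Among 37 tested further ISGs, 5 fell and 1 rose, with a median log2 fold change of -0.08. The share called was 16.2% against 11.5% of all genes tested, and 5 of the 25 that averaged 100 or more passed, which was no more than the background of 21.7% at that level. UBE2L6, the conjugating enzyme for ISG15, had 169, 191 and 168 in shControl and 111, 95.8 and 112 in shZDHHC20 (-0.73 ± 0.129, adjusted p = 0.00258 by limma). LY6E, a surface protein that restricts coronavirus entry, had 1247, 1168 and 1223 (shControl) and 920.0, 1039.6 and 899.8 (shZDHHC20) (-0.35 ± 0.069, 0.00514), and TRIM14, a MAVS adaptor, 441, 419 and 364 (shControl) and 279, 285 and 320.5 (shZDHHC20) (-0.47 ± 0.0988, 0.00781). The others that passed, named after their values were seen, were UBA7, the activating enzyme for ISG15, at 66.7, 70.3 and 70.1 (shControl) and 41.3, 46 and 40.4 (shZDHHC20) (-0.70, 0.0281), PML at 795, 801 and 763 (shControl) and 669, 649.9 and 682 (shZDHHC20) (-0.24, 0.0324), and the helicase DDX60L, which rose, at 129, 109 and 90.1 (shControl) and 175, 142 and 181 (shZDHHC20) (0.60, 0.0247). Of 17 alternatives, UBE2L6 missed the threshold in 1, LY6E in 3, TRIM14 in 4, DDX60L in 5, UBA7 in 7 (adjusted p up to 0.109) and PML in 7 (up to 0.134). Without shZDHHC20 replicate 2, SHISA5 (0.0129), PARP10 (0.0425) and SAMHD1 (0.0345) were also called lower and WARS1 (0.00339) and ZC3HAV1 (0.0447) higher, so that 3 rose and 8 fell, or 29.7% against a background of 19.2%. The activating and the conjugating enzyme of ISG15 fell, whereas ISG15 itself did not pass the test.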

How the data were processed

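RNA-seq libraries of PANC-1 cells, 3 shControl and 3 shZDHHC20, were prepared from total RNA with a directional kit per the labels. The authors deposited 1 normalized signal per gene and library in a table named as FPKM, without division by gene length. Every value was a whole multiple of what 1 read is worth in its library (100% within 0.02 of a step), so reads were recovered, 16575546 to 18441049 per library. The submitters' processing notes name hg19, and the aligner, counter, annotation and strand setting are not given in the sources used here. Exon positions shared with another gene are stated for some genes only. Others have them too, such as TRIM14 with NANS (mean 364) and PARP10 with GRINA (mean 2081), both on the opposite strand. The design had been written for FPKM, and its test was kept. Columns named siZDHHC20 and NC were matched to sample titles by group and replicate number, and 0 columns of other samples were left out.

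limma 3.58.1 was run in R 4.3.3 on log2(value + 0.1) for genes that averaged 1 or more, with group as the term, eBayes with a mean-variance trend and Benjamini-Hochberg adjustment over all genes, two-sided. On this scale a library at 0 lies far below one with 1 read, so fitted fold changes of genes near 0 can exceed the ratio of the means. A change was called at an adjusted p under 0.05. edgeR 4.0.16 (quasi-likelihood) and DESeq2 1.42.0 on the recovered reads were alternatives, and edgeR called 2739 genes. Each library was also left out, and further alternatives changed the pseudocount (1 or 0.01), the filter (none, or a mean of 10), the scaling (median ratios or quantiles), the moderation (robust, or without trend) or added the replicate number as a block. Scripts were tested on simulated data. Symbols came from a reference table for 27175 of 27394 identifiers and otherwise from GENCODE 29 (GRCh38), which gave positions and exon lengths. Promoter windows were from RefSeq on GRCh38.p14.

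The members and lists were chosen with earlier results of these data known. All members were accounted for, with values in every library for those called, and from each further list the 3 genes with the smallest adjusted p were named, and others as stated. Exact intervals are Clopper-Pearson and cover counting error only. A few genes of the further lists and markers are not reported here.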

Additional observations from a re-analysis of the deposited data

How the results depend on the processing

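Of the 16 calls among the 51 genes, 16 remained under a pseudocount of 1, a minimum mean of 10, robust moderation, edgeR and DESeq2, of which the last 3 added IFIT1. Median-ratio scaling could change no call, since all 6 libraries had the same factor and the deposited values were thus already scaled in this way. DTX3L was lost with a pseudocount of 0.01 and with no filter, and DTX3L and OAS3 with quantile normalization. Without the mean-variance trend 5 passed, 1 higher (IFI27) and 4 lower (TAPBP, TRIM25, LGALS3BP, HLA-B), and 351 of all genes, 134 higher and 217 lower; the cause was not tested. Leaving out each library in turn, with fewer samples in each fit, gave 9 to 17 calls, 1 to 5 higher and 8 to 12 lower, beside 1036 to 4268 over all genes, 384 to 1897 higher and 641 to 2371 lower. The median log2 fold change ranged from 0.10 to 0.20 for ISGs and from -0.50 to -0.42 for class I genes.

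No direction turned among the called genes. Log2 fold changes of some genes that were not called, not all of them small, turned when 1 library was left out: ISG20 ranged from -0.0101 to 0.152, BST2 from -0.0288 to 0.307, SP100 from -0.00522 to 0.0858, OAS1 from -0.059 to 0.497, ISG15 from -0.00889 to 0.0595, HERC5 from -0.0051 to 0.264, PARP9 from -0.0669 to 0.00121, PARP14 from -0.0665 to 0.0266, IRF7 from -0.0401 to 0.161, IRF9 from -0.094 to 0.688, PDIA3 from -0.0117 to 0.111, EIF2AK2 from -0.0417 to 0.111, IFNE from -0.041 to 1.01, IFNL3 from -0.47 to 2.02 and IFNLR1 from -0.47 to 0.35. IFNL3 was also at -0.0284 by edgeR and -0.0428 by DESeq2.

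With the replicate number as a block, 13 of the genes passed, without DTX3L, IFIT3 and OAS3, and 1942 of all genes, 764 higher and 1178 lower. The block has no basis in the labels, and same-numbered libraries deviated from their group means with correlations of -0.19, -0.27 and -0.08. Depth limits IFI27, IFI44, HERC6, RSAD2 and TLR3, which had under 12 reads in every library.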
